A study of Drosophila melanogaster with 8 samples.

Results

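Genes of the Drosophila melanogaster piRNA pathway, 10 in number, were followed in RNA precipitated with testis ribosomes: aub, piwi, AGO3, vas, tej, vret, qin, tud, spn-E and krimp. They were chosen by name, and 9 of them had a row among the 12051 genes of the table. No row matched tej, which was not analysed here. The RNA came from testes of WT flies aged 2 to 7 days. Ribosomes were precipitated from lysate with an antibody specific to eRpL22-like or with an antibody specific to eRpL22, paralogous proteins of the large ribosomal subunit that the male germline makes side by side. The table holds 4 libraries of the eRpL22-like pulldown and 3 of the 4 labelled for eRpL22, of which the library numbered 4 was not analysed here. All animals were of the same genotype, and no input or mock precipitate is among the labels, so RNA on ribosomes cannot be told apart from background that the pulldowns share. Whether the replicates are separate fly cultures is not stated, so p-values here reflect library-to-library spread that may be purely technical.

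piRNAs are small RNAs of the germline that guide PIWI-clade Argonaute proteins to transposon transcripts. In Drosophila, Aub and AGO3 cleave such transcripts in the cytoplasm in turn, each cut producing the guide for the other, and Piwi acts in the nucleus to silence transcription. Much of the cytoplasmic work takes place in nuage, a granule around the germ cell nucleus that is built from the RNA helicases Vas and Spn-E and from proteins with Tudor domains. In testes the pathway is best known for silencing Stellate repeats, whose protein otherwise forms crystals in spermatocytes. The question put here is whether transcripts of these genes were found with ribosomes of either kind and whether the pulldowns differed.

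None of the 8 genes that could be tested passed the test between pulldowns, and several were nearly absent from some replicates of a pulldown while abundant in others. Levels are given as normalized reads, the authors' read counts divided by a size factor of the library, and are not corrected for transcript length. Each was a whole number of reads, and a gene is called detected in a library where it had more than 3 reads. The whole table gave 15971685 to 26346787 reads per library, and 3 reads corresponded to 2.24 to 4.49 normalized reads, a floor that covers counting error only. Between 11.7% and 25.0% of the listed genes had 0 reads in any 1 library. Spermatid markers put the tissue label to the test: all 5 (Mst87F, dj, Mst77F, w-cup and soti) were detected in all 7 libraries, while of the ovary markers grk was detected in 2 libraries and Yp2, Vm26Ab and osk had no row. The 4 accessory gland markers and the 4 muscle markers were also detected in all 7 libraries. Those of the accessory gland summed to 16839 to 40008 normalized reads with eRpL22-like and 20526 to 33142 with eRpL22. The markers thus do not show that the RNA was of testis alone. Each library pools many cells, so fewer cells of a type and less RNA per cell cannot be told apart.

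**Figure D1:**
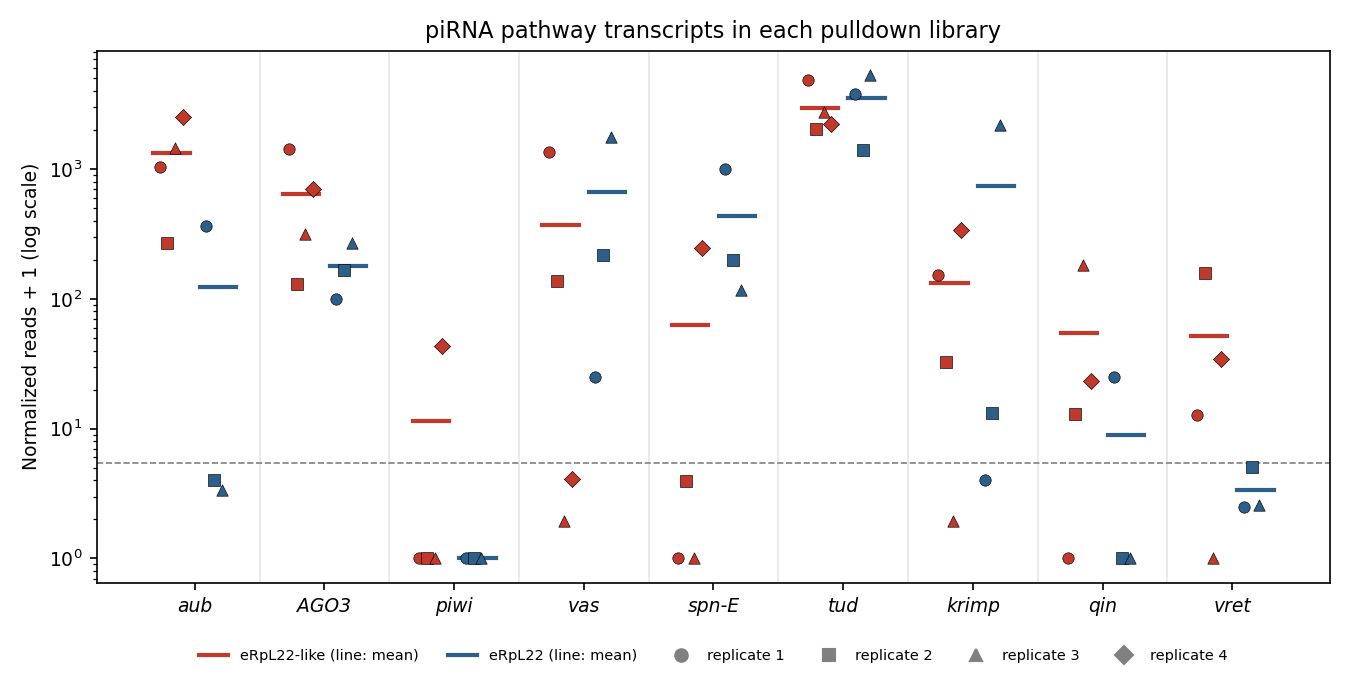
Normalized reads + 1 on a log scale for 9 piRNA pathway genes in each library, with marker shapes for the replicate number and a line at the mean of each pulldown. The dashed line marks 3 reads in the library with the highest floor (4.49 normalized reads). tud stays within a narrow band, whereas krimp, vas and spn-E span several orders of magnitude among replicates.

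The PIWI genes differed in how reliably they were detected. aub, which encodes the cytoplasmic PIWI protein Aubergine, stood at 1040, 269, 1456 and 2517 normalized reads in eRpL22-like replicates 1 to 4, against 362, 3.06 and 2.38 in eRpL22 replicates 1 to 3. The last 2 values were 3 reads each, for which the exact Poisson 95% interval is 0.619 to 8.77 reads. All 4 eRpL22-like libraries thus held aub, whereas among the eRpL22 libraries replicate 1 alone did, at a level above the lowest eRpL22-like library, so the pulldowns overlapped. The mean was 1320 ± 937 normalized reads (SD, n = 4) with eRpL22-like and 122 ± 207 (SD, n = 3) with eRpL22, a ratio of 10.8. Limma with Benjamini-Hochberg adjustment over 11174 genes gave a log2 fold change of 5.88 with an SE of 1.82 and a 95% interval of 2.19 to 9.58, an unadjusted p of 0.00265 and an adjusted p of 0.945. Limma's fold changes are computed on log2(normalized reads + 1), where near-empty libraries pull the eRpL22 average down further than the ratio of means does.

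AGO3, the PIWI partner of Aub in the cytoplasmic cycle, was detected in all 7 libraries. It had 1429, 128, 315 and 699 normalized reads in the eRpL22-like libraries and 98.7, 165 and 270 in the eRpL22 libraries. The highest 3 values belonged to the eRpL22-like pulldown, but its replicate 2 lay below 2 of the eRpL22 libraries. The ratio of means was 3.61, and the limma log2 fold change was 1.45 with a 95% interval of -1.36 to 4.25 (unadjusted p = 0.302, adjusted p = 0.945). With single libraries left out the estimate ran from 0.89, without eRpL22-like replicate 1, to 2.05, without eRpL22-like replicate 2.

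piwi, the nuclear PIWI gene, had 55 reads (42.1 normalized reads) in eRpL22-like replicate 4 and 0 reads in the other 6 libraries. A count of 0 allows up to 3 reads in each of those libraries. With a mean of 6.01 normalized reads over the 7 libraries piwi fell under the minimum of 10 set for testing. The log2 fold change of 8.07 for piwi in the authors' deposited table thus rested on a single library (p = 0.403 there). RefSeq places SCAR across the piwi locus, and SCAR had 0 to 498 normalized reads in the eRpL22-like libraries and 38.9 to 600 in the eRpL22 libraries.

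The helicase genes varied strongly among replicates. vas, whose DEAD-box helicase Vasa is a core nuage component and a standard germ cell marker, stood at 1349, 137, 0.934 and 3.06 normalized reads in eRpL22-like replicates 1 to 4 and at 23.9, 215 and 1772 in eRpL22 replicates 1 to 3. In reads, the eRpL22-like libraries ran between 1 and 1481 and the eRpL22 libraries between 16 and 2234, whereas the mean was 1.80-fold lower with eRpL22-like. eRpL22-like replicate 3, at 1 read (exact Poisson 95% interval 0.0253 to 5.57), fell short of the detection limit. The limma log2 fold change was -2.61 with a 95% interval of -7.67 to 2.45 (unadjusted p = 0.302, adjusted p = 0.945). It was -4.37, -1.22 and -1.58 without eRpL22-like replicates 1, 3 and 4, -4.15 and -1.08 without eRpL22 replicates 1 and 3, and -0.84 with DESeq2.

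The vas locus is shared with other genes. RefSeq places solo and vig across it, and solo, a cohesion gene of meiosis, uses some of the same exons. In eRpL22 replicate 2 vas and solo had the same number of reads, 211 each, while solo had at most 3 reads in any other library, including the libraries with 1481 and 2234 reads for vas. The vas value of eRpL22 replicate 2 is therefore uncertain, since the way the authors counted reads that fall in overlapping genes is not given in the sources used here. Without that library the limma log2 fold change of vas was -2.60, against -2.61 with all libraries. vig, which lies within a vas intron, had 5213 to 8619 normalized reads in the eRpL22-like libraries and 3344 to 8360 in the eRpL22 libraries. RefSeq also places genes with a row across vret (CG6985) and qin (CG14301 and CG31224). Genes without a row lie across aub (TTLL4A), spn-E (Pbp45) and qin. The unknown way of counting applies to the reads of these loci too.

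spn-E, the DExH-box helicase gene spindle-E, leaned the opposite way from aub. It had 0, 2.99, 0 and 246 normalized reads in eRpL22-like replicates 1 to 4, against 997, 199 and 117 in eRpL22 replicates 1 to 3. All 3 eRpL22 libraries held it, while 2 of the 4 eRpL22-like libraries had no read and 1 had 4 reads. eRpL22-like replicate 4 lay above 2 eRpL22 libraries, so the groups overlapped. The mean was 62.2 ± 122 (SD, n = 4) with eRpL22-like and 438 ± 486 (SD, n = 3) with eRpL22, a 7.04-fold lower mean. Limma gave a log2 fold change of -5.68 with an SE of 2.81 and a 95% interval of -11.37 to 0.02 (unadjusted p = 0.0508, adjusted p = 0.945).

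Among the Tudor-domain genes, tud was the steadiest. tud encodes Tudor, a scaffold that binds methylated arginines of PIWI proteins. It had 4856, 2051, 2763 and 2225 normalized reads in the eRpL22-like libraries and 3802, 1394 and 5313 in the eRpL22 libraries, with full overlap. The limma log2 fold change was -0.12 with a 95% interval of -1.19 to 0.94 (unadjusted p = 0.819, adjusted p = 0.981). A change of somewhat over 2-fold to lower levels was therefore not resolved even for this gene, whose interval was the narrowest of the 8 tested. tud took 36.3% to 73.5% of the reads of the 9 genes in the eRpL22-like libraries and 54.9% to 71.6% in the eRpL22 libraries.

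krimp, a nuage scaffold gene whose protein Krimper brings Aub and AGO3 together, had 151, 31.4, 0.934 and 340 normalized reads in eRpL22-like replicates 1 to 4 and 2.99, 12.2 and 2199 in eRpL22 replicates 1 to 3. A single library, eRpL22 replicate 3 with 2772 reads, supplied 99.3% of the eRpL22 mean. With that library the eRpL22 mean (738) exceeded the eRpL22-like mean (131), and the authors' deposited table gave a log2 fold change of -2.50 for krimp. Limma gave -0.20 with a 95% interval of -5.80 to 5.40 (unadjusted p = 0.942, adjusted p = 0.994), and 2.55 without eRpL22 replicate 3.

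qin and vret were low where they were detected. qin, which encodes a protein with E3 ligase and Tudor domains that keeps Aub paired with AGO3, had 0, 11.9, 180 and 22.2 normalized reads in the eRpL22-like libraries and 23.9, 0 and 0 in the eRpL22 libraries. It was detected in 3 of 4 libraries with eRpL22-like and in 1 of 3 with eRpL22. vret, a Tudor-domain gene needed for piRNA production, had 11.8, 158, 0 and 33.7 normalized reads with eRpL22-like and 1.50, 4.08 and 1.59 with eRpL22. Its eRpL22 libraries held 1, 4 and 2 reads, so that only replicate 2 passed the detection limit, and eRpL22-like replicate 3 had none. The limma log2 fold changes were 2.39 for qin and 2.35 for vret, with 95% intervals of -3.10 to 7.87 and -3.10 to 7.79 (unadjusted p = 0.383 and 0.387, adjusted p = 0.945 for each). Single libraries moved both estimates. That of qin was 3.93 without eRpL22 replicate 1, 3.70 without eRpL22-like replicate 1 and 1.20 without eRpL22-like replicate 3, and that of vret was 3.69 without eRpL22-like replicate 3 and 1.25 without eRpL22-like replicate 2.

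**Figure D2:**
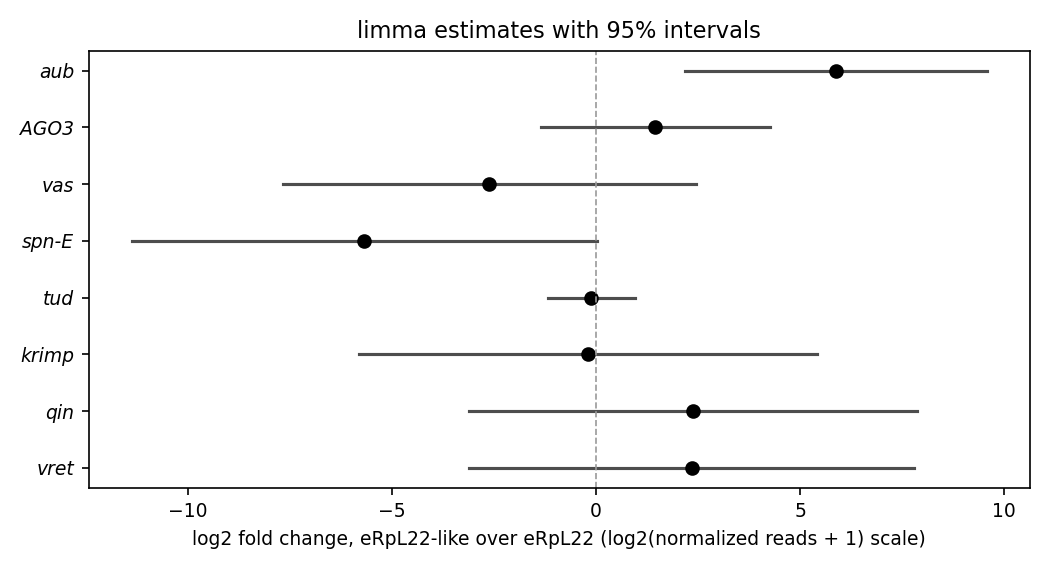
Limma log2 fold changes (eRpL22-like over eRpL22) of the 8 piRNA pathway genes tested, with 95% intervals as bars. The interval of aub, from 2.19 to 9.58, leaves out 0, and that of spn-E reaches to 0.02. piwi was too low to test.

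Counted together, 4 of the 8 genes tested had positive and 4 negative log2 fold changes. Limma called 0 of the 8 at an adjusted p of 0.05, as it called 0% of all 11174 genes. An unadjusted p under 0.05 was found for 1 of the 8, aub, against 4.11% of all genes (459), and for none of the 9 genes were the pulldowns free of overlap, as they were for 5.14% of all genes tested. The median log2 fold change was 0.66 for the 8 genes and -0.03 for all genes tested. A fold change of at least 2-fold either way was estimated for 6 of the 8 genes and for 49.6% of all genes, so large estimates were common in the table. None of the 8 had a 95% interval that lay within 2-fold either way. edgeR's quasi-likelihood test on the whole reads also called 0 of the 9516 genes it kept (0%), and 3.96% of them had an unadjusted p under 0.05. With DESeq2 on these reads, 9.52% of genes had an unadjusted p under 0.05, and 1.36% of 9187 genes passed after adjustment. None of the 7 genes here to which DESeq2 gave an adjusted p passed (krimp had none and piwi was not tested), and the smallest, for aub, was 0.271. In the authors' deposited table, which called 0.174% of its genes, aub had a log2 fold change of 3.43 with p = 0.0284 and adjusted p = 0.792, AGO3 1.85 with adjusted p = 0.875, and spn-E -2.81 with adjusted p = 0.875.

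Detection by library followed the table as a whole in the eRpL22-like pulldown. Of the 9 genes, 6, 8, 4 and 9 were detected in eRpL22-like replicates 1 to 4, and 6, 6 and 5 in eRpL22 replicates 1 to 3. The 2 eRpL22-like libraries with 8 and 9 detected genes also had the most listed genes detected, 84.1% and 81.0%, while those with 6 and 4 had 67.3% and 66.6%, and the eRpL22 libraries had 74.3%, 75.7% and 73.3%. The eRpL22-like libraries had 25159184, 24378034, 22448043 and 24635199 reads in replicates 1 to 4, and the part of depth in this order was not tested. Over all pairs of gene and library, the 9 genes were detected in 44 of 63 (69.8%), against 74.6% for all listed genes. The pairs comprised 27 of 36 with eRpL22-like and 17 of 27 with eRpL22. AGO3 and tud were detected in all 7 libraries (2 of 9 genes, 22.2%), against 48.7% of listed genes.

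**Figure D3:**
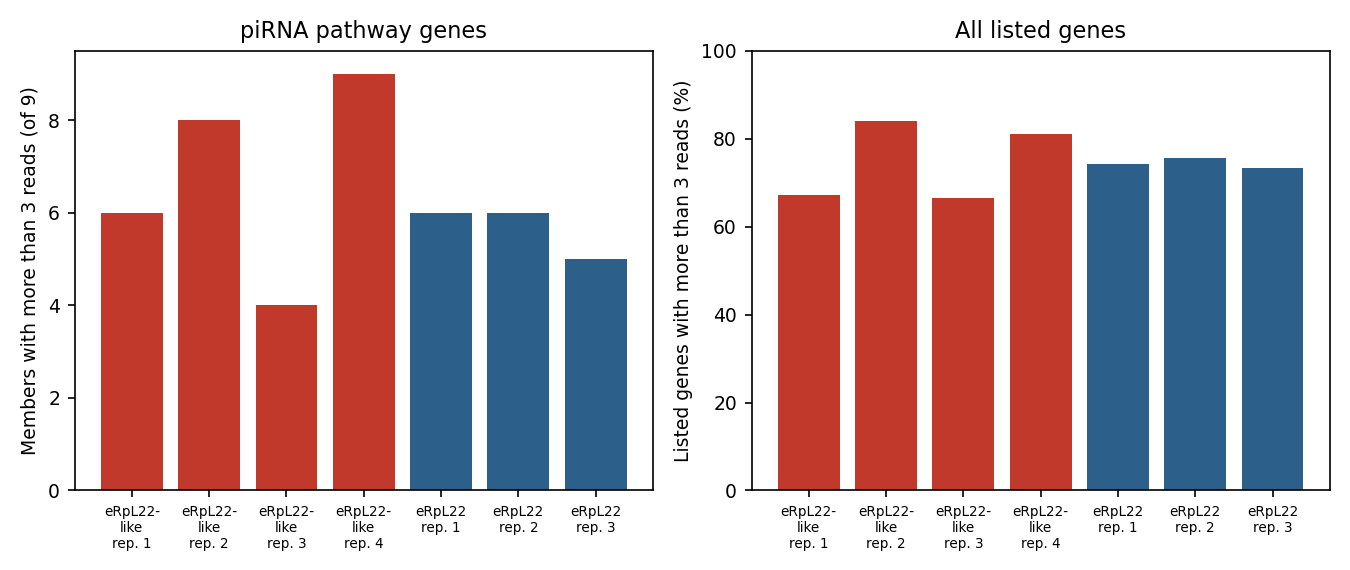
Number of the 9 piRNA pathway genes with more than 3 reads in each library (left) and the percentage of all 12051 listed genes with more than 3 reads (right). eRpL22-like replicate 4 holds all 9 genes and replicate 3 holds 4.

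The libraries also differed in which gene other than tud took the most reads, without correction for length. It was AGO3 in eRpL22-like replicate 1 and aub in replicates 2, 3 and 4, whereas in the eRpL22 pulldown it was spn-E in replicate 1, vas in replicate 2 and krimp in replicate 3. Summed over the 9 genes, normalized reads ranged from 2789 to 8836 with eRpL22-like and from 1993 to 9674 with eRpL22. As a share of the reads, the genes took 0.0153% to 0.0386% with eRpL22-like and 0.00989% to 0.0463% with eRpL22, so neither range stood apart from the other.

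The spread of these genes among replicates lay within the range of other genes at their level. It was measured as the SD of log2(normalized reads + 1) around the mean of each pulldown. At means of 100 to under 1000 it was 2.64 for aub, 1.24 for AGO3, 3.94 for vas, 3.08 for spn-E and 3.98 for krimp, against a median of 2.80 over the 5090 genes of that range. AGO3 thus lay below the lower quartile of 1.65, and vas and krimp above the upper quartile of 3.64. For tud it was 0.77, against a median of 0.81 over the 2713 genes with means of 1000 to under 5000. For qin and vret it was 2.93 and 2.41, against a median of 2.95 and a lower quartile of 2.56 over the 2601 genes with means of 10 to under 100.

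**Figure D4:**
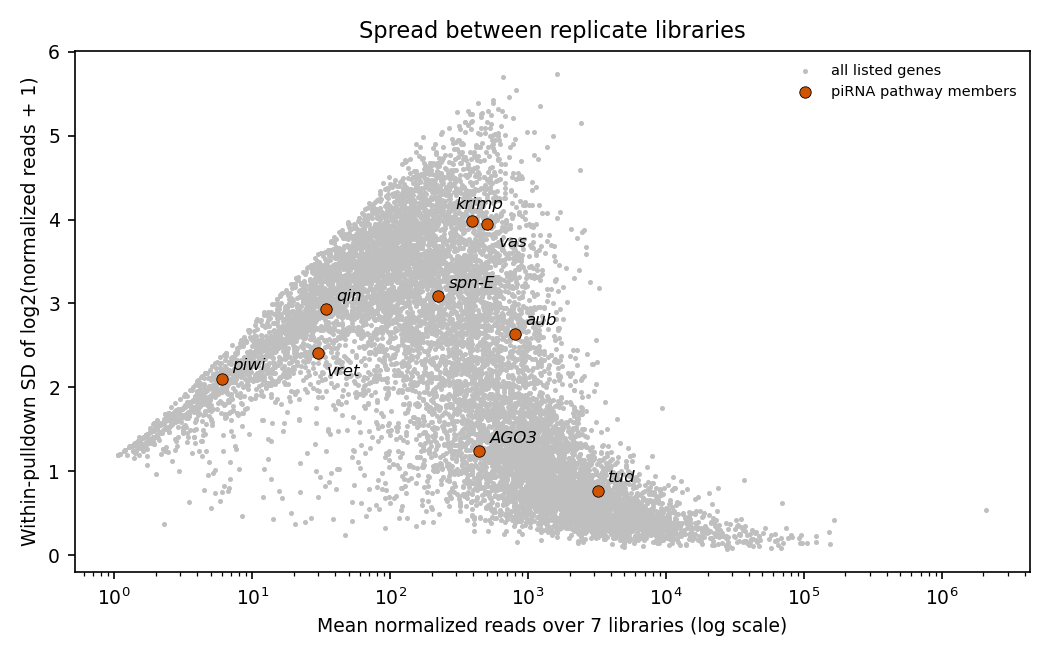
SD of log2(normalized reads + 1) within pulldowns against mean normalized reads (log scale) for all listed genes, with the 9 piRNA pathway genes marked. tud lies among the abundant genes of small spread, AGO3 low for its level, and vas and krimp high at SDs of 3.94 and 3.98.

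Other genes of the pathway, from lists of nuage and piRNA processing, cluster transcription and export, and nuclear silencing, were detected in 72.7%, 80.6% and 92.2% of pairs of gene and library, and none was called. Of 20 nuage and piRNA processing genes tested, 7 were positive and 13 negative in log2 fold change (median -0.43), and limma called 0. The most abundant were bel and Hsp83, a helicase and a chaperone gene with wide roles outside the pathway. bel had 14954 ± 1972 normalized reads (SD, n = 4) with eRpL22-like and 22019 ± 1532 (SD, n = 3) with eRpL22. No other member of the list had as small a p in limma (log2 fold change -0.56, unadjusted p = 0.0152, adjusted p = 0.945). The largest estimate among members with a mean of at least 100 was that of shu, a co-chaperone gene for loading PIWI proteins, at 324 ± 281 normalized reads (SD, n = 4) with eRpL22-like and 50.3 ± 58.6 (SD, n = 3) with eRpL22 (log2 fold change 3.22, unadjusted p = 0.182, adjusted p = 0.945).

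Genes for transcription and export of piRNA clusters and genes that act with Piwi in the nucleus gave medians of -0.32 over 14 genes and -0.24 over 11 genes, with 0 called in either list. Of the first list, the most abundant were Trf2, which encodes a TBP-related factor, and CtBP, a transcriptional corepressor gene, with log2 fold changes of -0.19 and 0.45. Nxt1, an RNA export gene, had the largest estimate at -2.75, with an unadjusted p of 0.366. Of the second list, Su(var)2-10, a SUMO ligase gene, averaged 827 ± 452 normalized reads (SD, n = 4) in the eRpL22-like pulldown and 2883 ± 412 (SD, n = 3) with eRpL22. Its libraries ranged from 191 to 1237 with eRpL22-like and from 2448 to 3267 with eRpL22, without overlap (log2 fold change -2.08, unadjusted p = 0.00831, adjusted p = 0.945). Pulldowns were free of overlap for 5.14% of all genes tested. They were so for bel too, at 13410 to 17846 with eRpL22-like and 20371 to 23401 with eRpL22. Mi-2, a chromatin remodeller gene, had a log2 fold change of -1.06 (unadjusted p = 0.119), and Panx, whose protein links Piwi to silencing, had -2.50 (unadjusted p = 0.344).

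Small RNA genes outside the piRNA pathway were also uncalled. The 14 genes of the miRNA and siRNA pathways had a median of -0.47 and 0 calls. Hsc70-4, a chaperone gene, averaged 27414 ± 12606 normalized reads (SD, n = 4) in the eRpL22-like pulldown and 17888 ± 3211 (SD, n = 3) with eRpL22 (log2 fold change 0.52, unadjusted p = 0.0422). The Argonaute gene of the miRNA pathway, AGO1, had 954 ± 603 normalized reads (SD, n = 4) with eRpL22-like and 1403 ± 770 (SD, n = 3) with eRpL22. AGO2, that of the siRNA pathway, had 241 ± 284 (SD, n = 4) with eRpL22-like and 631 ± 713 (SD, n = 3) with eRpL22.

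**Figure D5:**
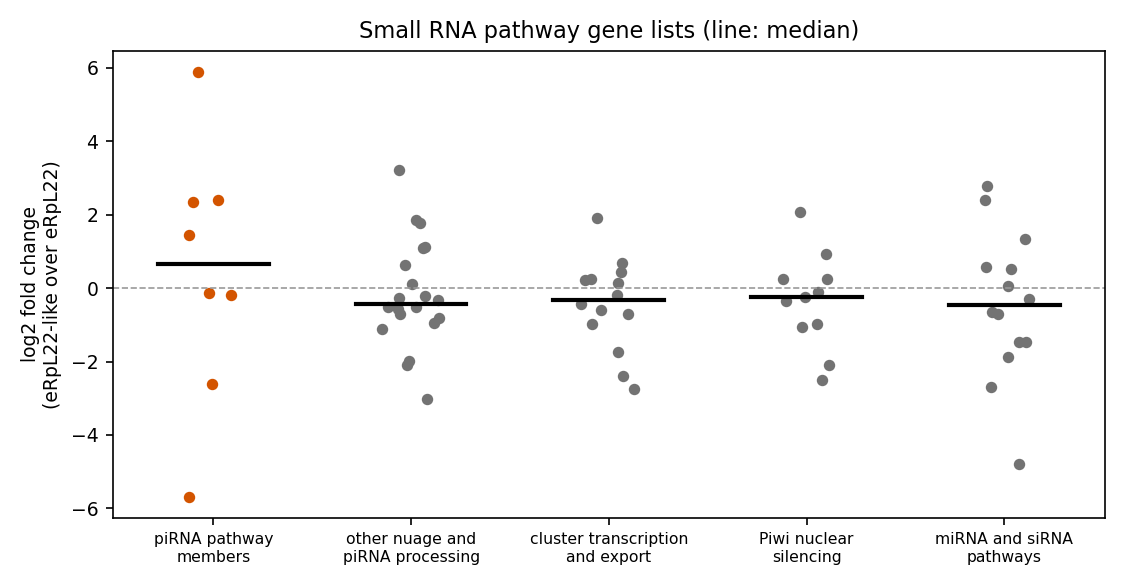
Limma log2 fold changes (eRpL22-like over eRpL22) of the tested genes of 5 small RNA gene lists, with a line at each median. The medians run from -0.47 to 0.66, and the piRNA pathway genes hold the highest and the lowest point, aub at 5.88 and spn-E at -5.68.

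Few Stellate genes could be read. Ste:CG33236 had 161 normalized reads in eRpL22 replicate 1 and none elsewhere, and Ste:CG33247 had 7.47 in eRpL22-like replicate 2 and none elsewhere. As near-identical repeats can split reads among themselves, these counts are uncertain.

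Markers of early germ cells were also unevenly detected. Of the 6 markers, bgcn and Rbfox1 were detected in all 7 libraries, bam, the switch gene of spermatogonial differentiation, and stg in 3 each, and nos and zpg in 2 each. The 6 markers together were detected in 24 of 42 pairs of gene and library (57.1%), against 74.6% for all listed genes. Their summed level ranged from 1660 to 5049 normalized reads with eRpL22-like and from 2882 to 3896 with eRpL22. Most of this sum came from Rbfox1 and bgcn. Rbfox1 averaged 1573 with eRpL22-like and 1914 with eRpL22, and bgcn 931 and 1244, so the sum says little of the other markers. The 5 spermatid markers summed to between 218461 and 290364 with eRpL22-like and between 297966 and 323247 with eRpL22, without overlap. As a share of the reads they did overlap, at 1.15% to 1.38% with eRpL22-like and 1.35% to 1.48% with eRpL22. Taken singly, dj did not overlap, at 77652 to 97264 with eRpL22-like and 102254 to 115299 with eRpL22. The same held for 5.14% of all genes tested. Mst87F, Mst77F, w-cup and soti did overlap, and soti had a positive log2 fold change (0.11). The 4 muscle markers (Mhc, up, Act57B and Tm2) summed to 2960 to 10518 with eRpL22-like and 2256 to 2804 with eRpL22. These muscle sums did not overlap. How often sums of lists chosen without regard to cell type would stand apart was not tested, for the muscle or the spermatid sums. Tm2 had a limma log2 fold change of 3.56 (unadjusted p = 0.00522, adjusted p = 0.945). Act57B and Tm2 supplied most of these sums with eRpL22-like, while up averaged 136 with eRpL22-like and 817 with eRpL22. The libraries of Mhc overlapped, at 8.41 to 943 with eRpL22-like and 11.2 to 436 with eRpL22. Sums of the other marker lists overlapped between pulldowns. The 4 hub markers summed to 1880 to 2922 with eRpL22-like and 1163 to 3004 with eRpL22, and the 5 cyst cell markers to 2481 to 7604 with eRpL22-like and 3756 to 4025 with eRpL22. The 4 accessory gland markers summed to 16839 to 40008 with eRpL22-like and 20526 to 33142 with eRpL22. The 3 fat body markers with a row summed to 1191 to 2003 with eRpL22-like and 1161 to 2450 with eRpL22, and of them Yp1 was at 0 in all libraries but eRpL22 replicate 1. The 6 spermatocyte markers were detected in 41 of 42 pairs, with sums of 6085 to 9149 with eRpL22-like and 4822 to 6849 with eRpL22. The part of these markers in the values of the piRNA pathway genes was not tested.

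The genes whose levels ran most like those of aub were spag4, CR45958 and CG14628. Over the 7 libraries, Pearson's r with aub on log2(normalized reads + 1) was 0.98, 0.97 and 0.97, the highest among 8572 genes with a mean of at least 100. spag4, a SUN-domain gene of spermatids, had 530, 61.2, 777 and 399 normalized reads in the eRpL22-like libraries and 242, 1.02 and 1.59 in the eRpL22 libraries. Like aub it was thus nearly absent from eRpL22 replicates 2 and 3. The other genes were not, and varied far less than aub. CR45958 had 429 to 762 normalized reads with eRpL22-like and 131 to 565 with eRpL22. CG14628 had 2382 to 3143 with eRpL22-like and 1329 to 2133 with eRpL22. With 7 libraries and so many candidates, high values of r are a description only.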

How the data were processed

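RNA was extracted with Trizol from eRpL22-like or eRpL22 immunoprecipitates and made into Kapa Hyper prep libraries that were sequenced as single reads of 50 bases, per the labels' protocols. Of tools, STAR, cutadapt, Trim Galore and DESeq2 appear in the submitters' processing notes, with no version. Build, annotation and read counter: not given in the sources used here. The deposited table gives a normalized expression signal per library, and the authors' log2 fold change, Wald score, p-value and adjusted p-value, per the file headers. All signal values (100%) were whole reads divided by a library factor, at a relative tolerance of 1e-06. No column of other samples was present.

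The main test was limma 3.58.1 (R 4.3.3, empirical Bayes trend, two-sided, no covariate) on log2(normalized reads + 1) for genes with a mean of at least 10, with Benjamini-Hochberg adjustment at 0.05. edgeR 4.0.16 and DESeq2 1.42.0 were run on the recovered reads. Other alternatives were scalings, pseudocounts, no filter, a replicate block and leaving out each library. Lists are described by counts and medians. Members and lists were chosen with earlier results of these data known. All members are named, and from each other list the 2 with the highest mean and the 1 with the largest change among genes with a mean of at least 100, from which the text takes examples. The library ranges of Su(var)2-10, bel and dj, the overlap of single spermatid markers and the spermatid share of reads were added after their values were seen. So were the Stellate genes, bam, stg, nos, up, Mhc, AGO1 and AGO2. Gene names are the table's, and 11952 of its 12051 identifiers were in a table of current names. Overlapping genes come from RefSeq (Release 6 plus ISO1 MT), by name only. Summaries used Python 3.11.15, pandas 2.3.3 and scipy 1.17.1, and figures matplotlib 3.10.9.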

Additional observations from a re-analysis of the deposited data

Results flagged for a closer look

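In 4 of the 9 genes 1 eRpL22-like library stood apart from the other 3 by Dixon's criterion (a gap over 0.829 of the range of 4 libraries), where chance flags about 1 in 20 groups with normally spread values. Of all listed genes with any spread among these 4 libraries, 3425 of 11709 (29.3%) met the same criterion, as did 2859 of the 10983 of them that were tested (26.0%), so single libraries standing apart were common across the table. piwi was at 42.1 normalized reads in eRpL22-like replicate 4 and at 0 in the others. spn-E was at 246 in the same library, against 2.99 in the next. vas was at 1349 in eRpL22-like replicate 1, against 137 in the next. qin was at 180 in eRpL22-like replicate 3, against 22.2 in the next. The eRpL22 pulldown, with 3 libraries, was not examined in this way.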

How the results depend on the processing

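Over 16 alternatives to the test of each of the 8 genes, 122 of 128 results kept their direction and stayed uncalled (DESeq2 gave krimp no p), and limma, edgeR and DESeq2 called none of these genes or of 45 other pathway genes tested. aub stayed positive in all 16, from 3.43 to 8.09, with adjusted p-values from 0.271 to 1.00, and its unadjusted p exceeded 0.05 only with edgeR (0.0625). spn-E stayed negative in all 16, from -7.50 to -2.78, with adjusted p-values from 0.820 to 1.00. Its unadjusted p ran from 0.0135 to 0.260 over these alternatives and was under 0.05 in 4 of the 16. krimp became positive with quantile normalization (0.0466). When libraries were left out in turn, krimp ranged from -2.01 to 2.55, positive without eRpL22 replicate 3 or eRpL22-like replicate 3, and tud from -0.68 to 0.28, positive without eRpL22 replicate 1 (0.04), eRpL22 replicate 3 or eRpL22-like replicate 2 (0.03). The causes were not tested. Calls over all genes numbered 0 in the main test, 125 with DESeq2, 1 (CG9920, adjusted p = 0.00183) with quantile normalization and 0 in the other alternatives, each left-out library included. Same-numbered libraries did not deviate together (r of 0.01, 0.02 and 0.01). With so few libraries and so wide a spread, these values cannot show whether libraries of the same number were prepared together. A replicate block over numbers 1 to 3 left calls at 0, with a log2 fold change of 5.44 for aub. Detected pairs of gene and library numbered 51 with any read and 41 with at least 10 reads, against 44. At means of 100 to under 1000 the median half-width of the 95% interval was 4.29 on the log2 scale. A gene with that half-width needed an estimate above 4.29 either way for its interval to leave out 0. Even changes far over 2-fold were thus not detectable for most genes at the level of aub.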
